A study of Mus musculus with 8 samples.

Results

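Sfrp2, Thy1 and Htra3 are genes of the stromal cells of fat, the cells that lie between the adipocytes and include their progenitors. They were taken as all probe sets that the platform annotation assigns to these symbols, which gave 3 genes, each with 1 probe set, of 6137 named genes on 13179 probe sets. Sfrp2 and Htra3 are on chip A of the Affymetrix array set and Thy1 is on chip B, so none of them has a second probe set to check it against. The genes were chosen by their intensities in these same data, which were high in both DU6 lines for Sfrp2 and Htra3 and in DU6 for Thy1. Their levels and ratios are therefore given as a description, without a test.

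The RNA came from the epididymal fat pad, which lies beside the epididymis, of males aged 42 days. The groups are DU6, DU6i, DUKs and DBA, each 1 pool of the RNA of 20 animals hybridised to 1 array of each chip (8 arrays). DU6 was selected for high body weight, DU6i is an inbred line derived from it, DUKs is an unselected control line, and DBA is inbred without that selection. These histories are background knowledge; the labels name the lines and give selected lines and adiposity as keywords. All 4 groups are untreated as far as the labels say. A pool has no spread between animals, so that differences between lines have no replicate check, and DU6 and DU6i are related. The number of arrays limits the precision. As a check of the tissue, all 15 adipocyte markers on the chips were above the background floor in at least 1 line. This check does not cover other tissue in the pools, whose marker sums are given below. Adipoq, the adiponectin gene, had intensities of 21044 in DU6 and 48251 in DU6i, against 36670 in DUKs and 28894 in DBA. The 99th percentile of the chip A intensities had the same order, with 18810 in DU6 and 34793 in DU6i, against 27552 in DUKs and 23450 in DBA. The part of array brightness in the Adipoq values was not tested.

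SFRP2 is a secreted protein whose frizzled-like domain binds Wnt ligands, and it modulates Wnt signalling at the cell surface. THY1 (CD90) is a surface glycoprotein held in the membrane by a lipid anchor; in fat it marks stromal cells, and it is also made by T cells and neurons. HTRA3 is a secreted serine protease that can dampen signalling by TGF-beta. Wnt and TGF-beta signals both restrain the conversion of fat progenitors into adipocytes, and the stromal cells that carry such genes also lay down collagen.

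In the GRCm38.p6 assembly, RefSeq places Sfrp2 on chromosome 3 (83765750 to 83774314), Htra3 on chromosome 5 (35652026 to 35679813) and Thy1 on chromosome 9 (44043384 to 44048579). The sequences before the transcription start are shown for Sfrp2 and Htra3, the genes that were higher in both DU6 lines. They are the 250 bases before the transcript start used in the RefSeq promoter table, at chr3:83766071-83766320 on the plus strand and chr5:35679781-35680030 on the minus strand, written 5′ to 3′. These starts are not the outer edge of the genes, which have several transcripts: the Sfrp2 window lies inside the gene's span with all its bases, and the Htra3 window with 33. The table does not say which transcript it used. Capitals mark matches to the E-box CANNTG, the motif of basic helix-loop-helix factors such as TWIST, and to CAGAC, a motif of the Smad factors of TGF-beta signalling.
Sfrp2: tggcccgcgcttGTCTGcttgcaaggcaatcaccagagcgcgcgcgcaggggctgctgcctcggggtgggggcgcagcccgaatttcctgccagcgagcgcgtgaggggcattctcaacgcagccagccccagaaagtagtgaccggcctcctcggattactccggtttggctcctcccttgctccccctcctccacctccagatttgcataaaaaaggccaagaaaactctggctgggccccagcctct
Htra3: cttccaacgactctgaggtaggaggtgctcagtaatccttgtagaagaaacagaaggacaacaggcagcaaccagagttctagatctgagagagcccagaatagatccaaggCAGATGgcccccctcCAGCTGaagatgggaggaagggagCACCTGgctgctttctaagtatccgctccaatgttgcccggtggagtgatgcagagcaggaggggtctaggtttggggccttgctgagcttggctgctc

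The promoters differed in make-up. The Sfrp2 window held 16 CpG dinucleotides and 63.6% G and C, and the Htra3 window 3 CpG dinucleotides and 54.8% G and C, where the medians over 32851 RefSeq promoter windows were 6 and 52.4%. Htra3 had 3 E-boxes, starting at positions -138, -123 and -99 from the start, and Sfrp2 had 0. An E-box occurred in 66.2% of all windows, and 3 or more in 12.2%. Sfrp2 had 1 match to CAGAC, on the opposite strand, at position -238, and Htra3 had 0, where 42.2% of all windows held one. CTTTGAT, a motif of the TCF and LEF factors of Wnt signalling, was in neither window and in 3.21% of all windows. CCAAT was in the Htra3 window 1 time and in 33.8% of all. Motifs were searched on both strands, and a match is a description of these letters only.

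Sfrp2 was higher in both DU6 lines than in both control lines. Its signal was 3832 in DU6 and 3420 in DU6i, against 1727 in DUKs and 1427 in DBA. The signals are the deposited intensities, on a linear scale on which each array was scaled to one overall level. DU6 and DU6i were close to each other, with a log2 ratio of 0.16, and so were DUKs and DBA, with 0.28. DU6 stood 2.22-fold above DUKs (log2 ratio 1.15) and DU6i 2.40-fold above DBA (log2 ratio 1.26). These pairs share no array.

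To judge the technical error of such a ratio, the 2 probe sets of genes that have exactly 2 were set against each other, where both exceeded the floor. The floor, to which lower signals were raised, was 1023 on chip A and 2258 on chip B. The SD of 1 log2 ratio was 0.44 in DU6 against DUKs (346 genes) and 0.34 in DU6i against DBA (348 genes). It was taken over signals of any size above the floor, and was not computed separately for signals near the floor, such as Htra3 in DUKs. It covers differences between the probe sets of a gene. Errors that both probe sets share, such as those of a whole array or RNA pool, are not in it, nor is the spread between animals. The Sfrp2 ratios came to 2.61 and 3.69 of these SDs, whereas the differences of Sfrp2 between DU6 and DU6i and between DUKs and DBA were 0.36 and 0.67 of the SDs of their own pairs. So the order of DU6 and DU6i, and that of DUKs and DBA, was within the technical error for Sfrp2.

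Htra3 had the same order of the sides. Its signal was 3846 in DU6 and 3315 in DU6i, against 1089 in DUKs and 1663 in DBA. The DUKs value lay only just above the floor of chip A, at 1.07 times it, while the DU6 value was 3.76 times the floor. Htra3 was 3.53-fold higher in DU6 than in DUKs (log2 ratio 1.82, or 4.13 technical SDs) and 1.99-fold higher in DU6i than in DBA (log2 ratio 0.995, or 2.91 technical SDs). DU6 and DU6i differed by a log2 ratio of 0.21, less than the technical SD of 0.46 in that pair. In contrast to Sfrp2, Htra3 was lower in DUKs than in DBA, by a log2 ratio of -0.61 (-1.48 technical SDs).

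Thy1 followed another order. Its signal was 11537 in DU6 and 5622 in DU6i, against 3102 in DUKs and 5974 in DBA, so that the DU6 lines and the control lines overlapped. DU6 was highest and DUKs lowest, 3.72-fold apart (log2 ratio 1.89, or 4.30 technical SDs). DU6i and DBA, the inbred lines, lay between them and differed by a log2 ratio of -0.09 (-0.26 technical SDs). Within the related lines, DU6 was 2.05-fold above DU6i (log2 ratio 1.04). Between the control lines, DUKs was 1.93-fold below DBA (log2 ratio -0.95, and -0.40 with the floor doubled).

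**Figure D1:**
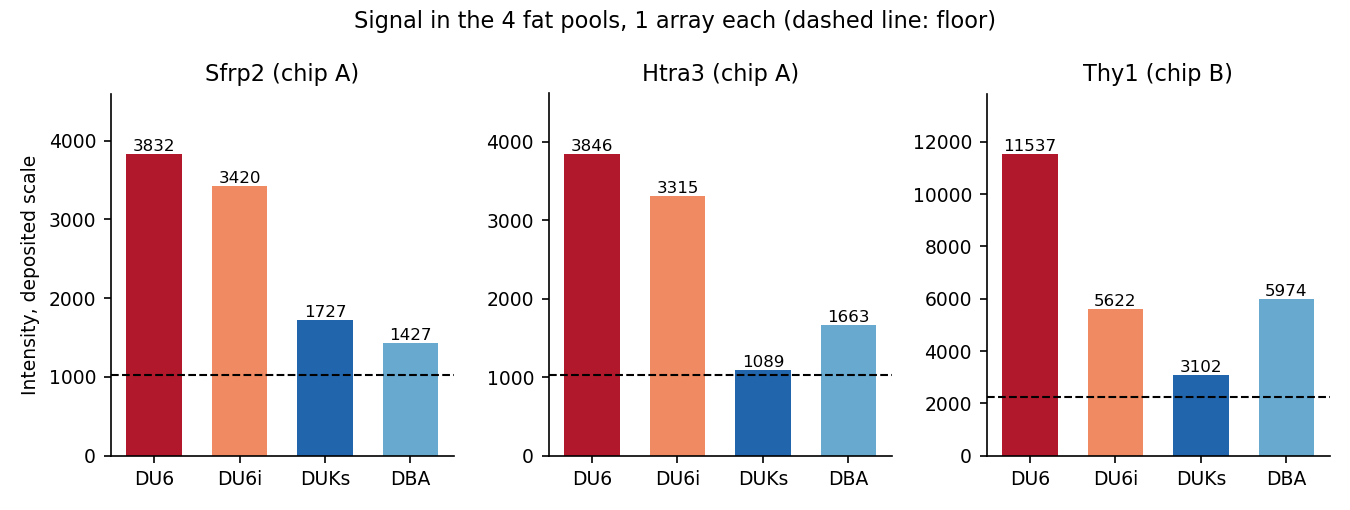
Intensity (linear, deposited scale) of Sfrp2, Htra3 and Thy1 in the DU6, DU6i, DUKs and DBA pools, 1 array per bar; the dashed line is the floor of the chip. For Sfrp2 and Htra3 both DU6 lines are above both control lines, while for Thy1 DU6i (5622) is at the level of DBA (5974).

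Averaged over the lines of a side on the log2 scale, Sfrp2 was 2.31-fold, Htra3 2.65-fold and Thy1 1.87-fold higher in DU6 and DU6i than in DUKs and DBA. The SD between the lines of a side (n = 2 each) was 0.12 and 0.19 for Sfrp2, 0.15 and 0.43 for Htra3, and 0.73 and 0.67 for Thy1, the DU6 side first in each case. The mean log2 difference between the sides was 1.21 for Sfrp2, 1.41 for Htra3 and 0.90 for Thy1. The lower DU6 line stood 1.98-fold above the higher control line for Sfrp2 and 1.99-fold for Htra3. Only 7 of 3787 probe sets of chip A had a gap as large as that of Sfrp2, and 5 as large as that of Htra3, these genes included. Since large gaps were a reason to pick the genes, nothing is read from these ranks or from the differences beside their spread.

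The share of all probe sets that passed the same limits gives the background. Of 5604 probe sets measured in DU6 against DUKs, 3.91% reached 2-fold higher in DU6, which all 3 genes did, and 6.3% reached 2-fold lower. Of 5556 measured in DU6i against DBA, 4.79% reached 2-fold higher in DU6i and 6.68% 2-fold lower. Sfrp2 was among those higher, Htra3 lay just under the limit at 1.99-fold, and Thy1 was in neither share. These calls depend on the treatment of low signals: with the floor doubled Sfrp2 was 1.87-fold higher in DU6 than in DUKs and 1.67-fold higher in DU6i than in DBA, and Htra3 was 1.88-fold higher in DU6 than in DUKs. With log2(signal + floor) the Sfrp2 ratios were 1.77-fold and 1.81-fold. Htra3 passed the limit in DU6i against DBA after quantile normalisation (2.19-fold) and rescaling (2.16-fold). In both pairs at once, 14 of 5085 probe sets (0.275%) reached 2-fold higher. Besides Sfrp2 the named ones were Slc6a13, Stx2, H2-Aa, Myl1, Qk, Gsto1, Cdr2, Nid2, Lgals3 and Hfe. Both DU6 lines were above both control lines for 14.6% of 6075 probe sets, and for Sfrp2 and Htra3 of the 3 genes. A gap of 1.5-fold or more was found for 1.25%, again with Sfrp2 and Htra3. Since these values chose the genes, nothing is read from the shares.

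The remaining pairs use the same arrays again and are not independent of the pairs above. Against DBA, DU6 was 2.69-fold higher for Sfrp2, 2.31-fold for Htra3 and 1.93-fold for Thy1, where 3.79% of probe sets passed 2-fold upward and 4.17% downward. Against DUKs, DU6i was 1.98-fold higher for Sfrp2, 3.04-fold for Htra3 and 1.81-fold for Thy1, where 3.39% passed 2-fold upward and 6.76% downward. With the floor doubled, which lies above the DUKs signal, the Htra3 ratio of DU6i to DUKs was 1.62-fold, and with log2(signal + floor) it was 2.05-fold. The Thy1 ratio of DU6i to DUKs was 1.24-fold with the floor doubled. Between the related lines DU6 and DU6i, 4.8% of probe sets passed 2-fold upward in DU6, Thy1 alone of the 3 genes among them, and 5.7% downward. Between DUKs and DBA, 5.29% passed 2-fold downward in DUKs and 6.01% upward, and none of the 3 genes did either. Thy1 is thus the gene of the 3 that differs most within a side.

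**Figure D2:**
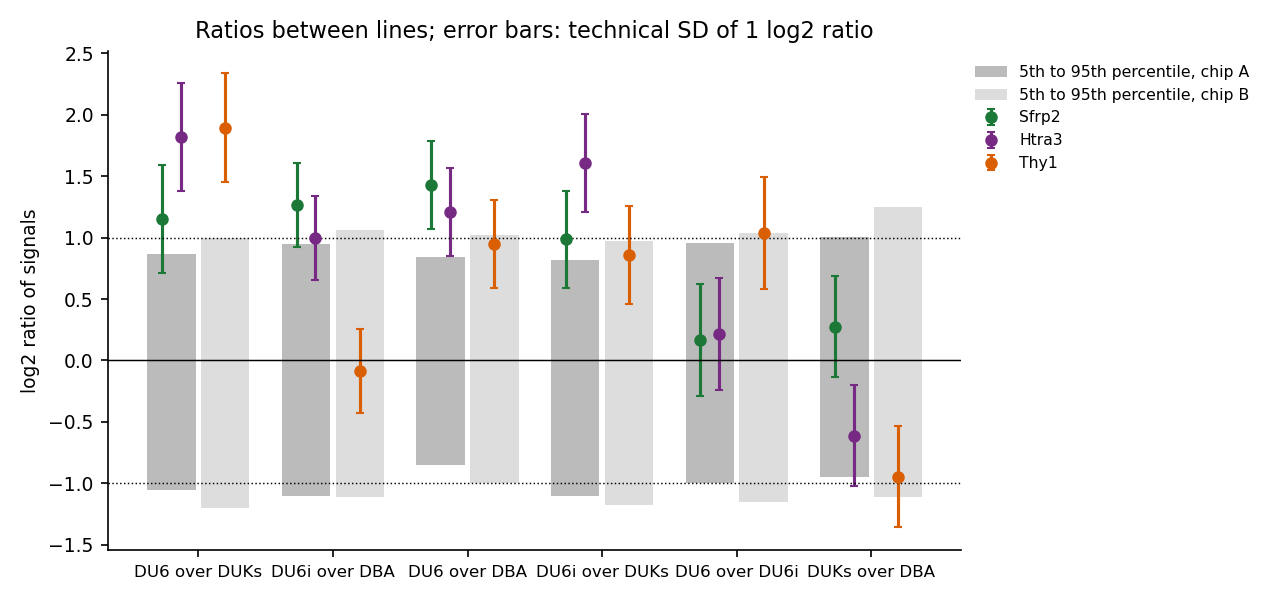
The log2 ratio of Sfrp2, Htra3 and Thy1 in each of the 6 pairs of lines, with the technical SD of 1 ratio as error bar; grey boxes span the 5th to the 95th percentile of all measured probe sets of the chip and dotted lines mark 2-fold. Sfrp2 and Htra3 lie above 0.9 in the 4 pairs of a DU6 line with a control line, and Thy1 is at -0.09 in DU6i over DBA.

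The rank of a signal on its own array does not depend on how arrays were scaled. Sfrp2 was brighter than 76.9% of the probe sets on the DU6 array and 77.1% on the DU6i array, against 60.9% on the DUKs and 57.4% on the DBA array. For Htra3 these shares were 77.0% in DU6 and 76.6% in DU6i, against 50.3% in DUKs and 60.5% in DBA. By rank, DU6 and DU6i could hardly be told apart for either gene. Thy1 was brighter than 91.8% of probe sets in DU6 and 84.9% in DU6i, against 77.6% in DUKs and 85.3% in DBA. The order of its signals, with DU6i next to DBA, was the same by rank.

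The arrays differed in quality measures that bear on a reading of these genes. On chip B, which carries Thy1, the middle probe set of the pyruvate carboxylase control reached 12.7% of its 3′ probe set in DU6 and 45.3% in DU6i, against 55.6% in DUKs and 14.3% in DBA. On chip A these values were 15.3%, 54.5%, 53.9% and 19.5% in the same order of lines. The 3′ to 5′ ratio of actin on chip B was 2.75 in DU6 and 1.72 in DU6i, against 1.66 in DUKs and 1.90 in DBA. Its order of the lines (DU6, DBA, DU6i, DUKs) is that of the Thy1 signal. The same ratio for Gapdh on chip B had another order, with 1.44 in DU6 and 0.90 in DU6i, against 1.41 in DUKs and 0.86 in DBA. The part of RNA quality or labelling in the Thy1 result was not tested. DU6 with DBA and DU6i with DUKs are the pairs close to each other on the pyruvate carboxylase measure. In them Thy1 was higher in the DU6 line by 1.93-fold and 1.81-fold. With the floor doubled, which lies above the Thy1 signal in DUKs, the latter was 1.24-fold. Sfrp2 and Htra3 were higher by 1.98-fold to 3.04-fold, the last being the Htra3 ratio that depends on the floor. Since these values chose the genes, nothing on RNA quality is read from them. The Affymetrix names of the Sfrp2 and Thy1 probe sets end in _s_at, which marks probes that may be shared between transcripts.

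**Figure D3:**
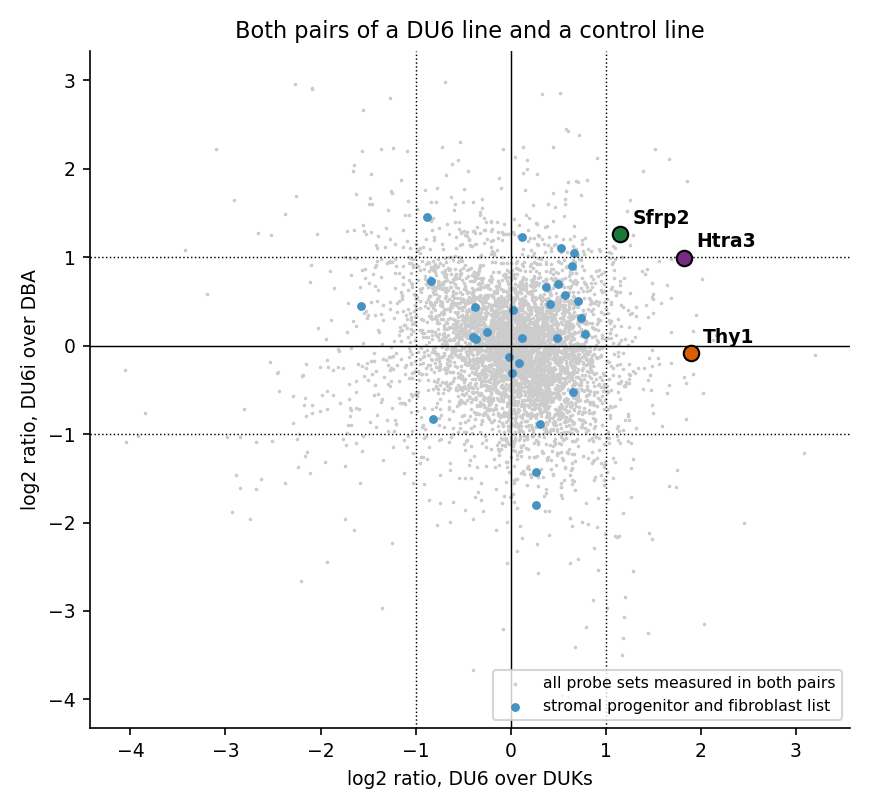
The log2 ratio of DU6i over DBA against that of DU6 over DUKs for the 5085 probe sets measured in both pairs (grey), the stromal progenitor and fibroblast list (blue) and Sfrp2, Htra3 and Thy1; dotted lines mark 2-fold. Sfrp2 and Htra3 lie to the upper right (Htra3 at 1.82 and 0.995), no blue point is 2-fold higher in DU6 than in DUKs (1 is 2-fold lower), and Thy1 lies at 1.89 and -0.09.

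Whether the 3 genes moved with other stromal genes was asked with a list of 47 genes of stromal progenitors and fibroblasts. Of these, 36 were on the chips, and 32 were above the floor in at least 1 line. In DU6 against DUKs 21 of 30 measured list genes were above 0, and the median log2 ratio was 0.26, where the median of all probe sets was 0.05. None was 2-fold higher and 1 was 2-fold lower, beside 3.91% and 6.3% of all probe sets. In DU6i against DBA 21 of 31 were higher in DU6i, with a median of 0.15 against -0.03 for all probe sets, 4 of them at least 2-fold, and 2 were 2-fold lower, beside 4.79% and 6.68% of all probe sets. Both DU6 lines were above both control lines for 12 of 32 (37.5%), beside 14.6% of all probe sets.

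The stromal list did not move as a block. Fstl1, a secreted follistatin-like protein of mesenchymal cells, had signals of 12992 in DU6 and 19178 in DU6i, against 8986 in DUKs and 8905 in DBA. Serpinf1, which encodes the secreted factor PEDF, was 1.58-fold higher in DU6 than in DUKs and 2.06-fold higher in DU6i than in DBA. For both genes, as for Sfrp2, the DU6 lines lay above the control lines. Postn, the matrix protein periostin, was 2.35-fold higher in DU6i than in DBA but only 1.08-fold higher in DU6 than in DUKs.

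The other progenitor markers named here did not separate the DU6 lines from the control lines. Pdgfra, the receptor used to define fat progenitors, had 2660 in DU6 and 1592 in DU6i, against 2210 in DUKs and 5568 in DBA, a log2 ratio of -1.81 for DU6i against DBA. Cd24a, a surface marker of early progenitors, was 2.69-fold lower in DU6i than in DBA and 1.20-fold higher in DU6 than in DUKs. Cd34, a marker of progenitors and endothelium, was under the floor in DU6, at least 2.97-fold lower than in DUKs. In DU6i Cd34 had 7414, against 6702 in DUKs and 5446 in DBA. Ogn, a small proteoglycan, was 2.74-fold higher in DU6i than in DBA and 1.85-fold lower in DU6 than in DUKs. The summed intensity of 10 mesothelial and epithelial markers had the order of Pdgfra, with 45950 in DU6 and 28435 in DU6i, against 36517 in DUKs and 71417 in DBA; its part in these levels was not tested. Dpp4, Cd44, Nt5e and Prrx1 were at or under the floor in all 4 lines.

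SFRP2 acts on the Wnt pathway, of which 39 of 60 listed genes were on the chips. Of 13 Wnt ligands, 12 were at or under the floor in all 4 lines, and Wnt3 was above it in DUKs alone. Beside this, 6075 of all 13069 probe sets were above the floor in at least 1 line. Of 6 frizzled receptors, Fzd4 and Fzd8 were above the floor somewhere. Fzd4 had 2165 in DU6 and 1743 in DU6i and was under the floor in DUKs and DBA, at least 2.12-fold above DUKs in DU6, and at least 1.70-fold above DBA in DU6i. Sfrp1, the close relative of Sfrp2, had another pattern, with 4158 in DU6 and 2275 in DU6i, against 3407 in DUKs and 6855 in DBA. It was 3.01-fold lower in DU6i than in DBA, where Sfrp2 was 2.40-fold higher.

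Inside the cell, Tle5, a short corepressor of the Groucho family, had signals of 21077 in DU6 and 13685 in DU6i, against 7666 in DUKs and 15035 in DBA. That is the order of Thy1 and not of Sfrp2. Dvl2, a relay of Wnt receptors, was under the floor in DU6i, at least 2.03-fold lower than in DBA. The median log2 ratio of the measured Wnt genes was 0.28 in DU6 against DUKs (9 of 13 higher) and -0.13 in DU6i against DBA (5 of 13 higher). Of all probe sets 54.1% were above 0 in DU6 against DUKs and 47.5% in DU6i against DBA. The sign of the median in DU6i against DBA turned after quantile normalisation, to 0.0113.

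HTRA3 is one of a family of proteases. Htra1, also secreted, had 20326 in DU6 and 21585 in DU6i, against 14648 in DUKs and 20704 in DBA, and Htra2, a protease of mitochondria, 3125 and 1834, against 1763 and 2685. Neither separated the DU6 lines from the control lines as Htra3 did. Of the TGF-beta list, 14 of 16 measured genes were higher in DU6 than in DUKs (median log2 ratio 0.52), but 7 of 17 were higher in DU6i than in DBA (median -0.02, which turned to 0.0457 after quantile normalisation and 0.0445 after rescaling). The shares of all probe sets above 0 were 54.1% and 47.5%, with medians of 0.05 and -0.03. Tgfbi, a matrix protein induced by TGF-beta, was 2.06-fold higher in DU6 than in DUKs and 1.19-fold higher in DU6i than in DBA. Inhbb, an activin subunit, had 6225 in DU6 and 4405 in DU6i, was under the floor in DUKs and had 5544 in DBA. The receptors Tgfbr1 and Tgfbr2 were at or under the floor in all lines.

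Collagens and other fibrillar matrix genes are the main product of stromal cells. Of 35 such genes 5 were at least 2-fold higher and 1 lower in DU6 than in DUKs (median log2 ratio 0.14), beside 3.91% and 6.3% of all probe sets. Of 32 measured in DU6i against DBA, 5 were higher and 1 lower (median 0.41), beside 4.79% and 6.68%. Nid2, of the basement membrane, had 5378 in DU6 and 7932 in DU6i, and was under the floor in DUKs, with 2537 in DBA. Col5a1, a minor fibrillar collagen, was 2.31-fold higher in DU6i than in DBA and 1.47-fold higher in DU6 than in DUKs; a second probe set gave log2 ratios of 1.26 and -0.03. Tnxb, tenascin X, was 2.21-fold higher in DU6 than in DUKs and 1.66-fold higher in DU6i than in DBA. Timp1, a metalloproteinase inhibitor, was 2.83-fold higher in DU6 than in DUKs and 1.69-fold lower in DU6i than in DBA. Both DU6 lines were above both control lines for 13 of 35 matrix genes (37.1%), beside 14.6% of all probe sets.

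THY1 binds integrins and shares its lipid anchor with other surface proteins. Of 24 such genes on the chips, 11 were measured in DU6 against DUKs, and 9 of them were higher in DU6 (median log2 ratio 0.26). Of 13 measured in DU6i against DBA, 7 were higher in DU6i (median 0.27, which turned to -0.0233 with the floor halved). Among all probe sets 54.1% and 47.5% were above 0 in these pairs. Itgb5, an integrin chain, had 7790 in DU6 and 6949 in DU6i, against 2894 in DUKs and 5043 in DBA. Gpc1, an anchored heparan sulfate proteoglycan, was 2.50-fold higher in DU6 than in DUKs and 1.26-fold higher in DU6i than in DBA. Ncam1, an adhesion molecule, was 2.08-fold lower in DU6i than in DBA by the brightest of its 6 probe sets.

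**Figure D4:**
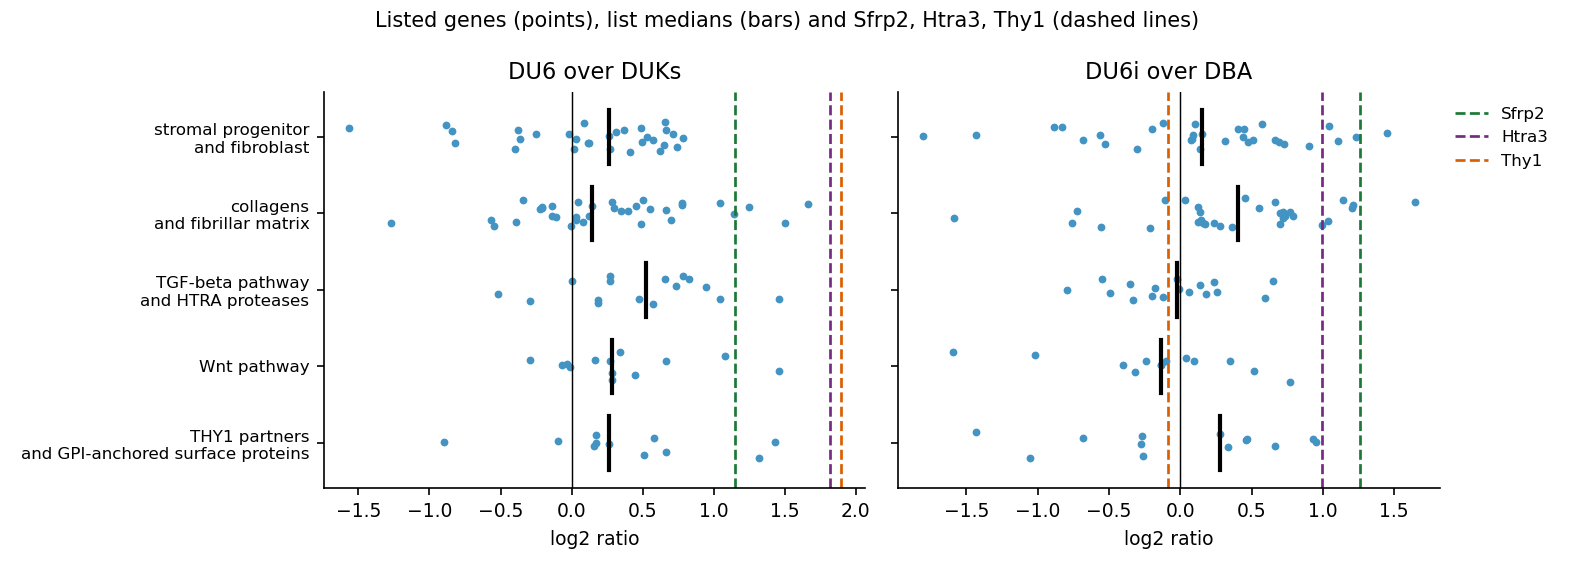
The log2 ratio of each measured gene of 5 lists (points) with the list median (black bar), for DU6 over DUKs and DU6i over DBA; dashed lines give Sfrp2, Htra3 and Thy1. The stromal median is 0.26 and 0.15, and the TGF-beta median is 0.52 and -0.02.

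A single test was possible for the listed genes that are not Sfrp2, Thy1 or Htra3, limma's comparison of both DU6 lines with both control lines (n = 2 lines per side). It called 0 of 5267 probe sets at an adjusted p of 0.05 (0% of those tested), with a smallest adjusted p of 0.829. Without adjustment 252 had a limma p under 0.05, where 263 would be expected if no probe set differed. None of the 30 stromal, 12 Wnt, 15 TGF-beta, 32 matrix and 11 anchored-protein genes fitted passed in either direction. The differences of the named genes are therefore described by size.

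Thy1 is also made by T cells and neurons, and markers of these cells were looked at beside it. Of all 13069 probe sets, 6075 were above the floor in at least 1 line, so that a place at or under it was common. The counts of such markers therefore do not show that these cells were absent. Of 11 T cell markers on the chips 10 were at or under the floor in all 4 lines, among them Cd3d, Cd3g, Cd4 and Cd8a. Cd3e alone was above it, in DU6i only (1925). Of 13 markers of neurons and nerve 10 were at or under the floor in all lines, including Snap25, Nefl and Tubb3. Those above it somewhere were Pmp22, S100b and Mbp, genes of myelin and glia. Mbp was above the floor in DU6 (3329) and DBA (2417) and under it in DU6i and DUKs, and DU6 and DBA were also the lines with the highest Thy1. The summed signal of these 3 was 18889 in DU6 and 25026 in DU6i, against 15688 in DUKs and 15123 in DBA. Pmp22 alone had 14245 in DU6 and 21720 in DU6i, against 12407 in DUKs and 11682 in DBA, so the sum mostly follows this gene.

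Markers of other cells moved with the sides as Sfrp2 and Htra3 did. The sums count a signal under the floor as the floor. That of 12 macrophage markers was 127816 in DU6 and 131788 in DU6i, against 97611 in DUKs and 78668 in DBA, and 8 of the 12 were higher in both DU6 lines than in both control lines. That of 7 endothelial markers was 48749 in DU6 and 50086 in DU6i, against 35968 in DUKs and 39434 in DBA, with 6 of 7 so ordered. Germ cell markers had the reverse order, 56151 in DU6 and 41718 in DU6i, against 220474 in DUKs and 101205 in DBA, for 9 of 9 genes. The sum of 8 epididymis and accessory gland markers was 128479 in DU6 and 26252 in DU6i, against 139196 in DUKs and 189513 in DBA. Of these 8, 1 was lower in both DU6 lines than in both control lines and 0 were higher. Of all probe sets 14.6% were above in both DU6 lines and 11.6% below. Adipocyte markers summed to 370749 in DU6 and 454302 in DU6i, against 467502 in DUKs and 307352 in DBA, with no common order of the sides. The part of these cells in the levels of the 3 genes was not tested. In pooled tissue, more stromal cells and more RNA per stromal cell cannot be told apart.

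The genes most like each of the 3 were found by the root mean square difference of log2 signals, centred over the 4 lines, among named probe sets of the same chip above the floor in all lines. With 4 lines this describes a pattern and carries no test. For Sfrp2, among 2184 genes, they were Myl1 (difference 0.10), a myosin light chain of skeletal muscle, Erdr1 (0.15), Cdr2 (0.15), Gsto1 (0.18), a glutathione transferase, and Samhd1 (0.18), a nucleotide hydrolase. Of 10 skeletal muscle markers, Myl1 among them, 5 were at or under the floor in all lines. Myl1 had 3025 in DU6 and 2952 in DU6i, against 1435 in DUKs and 1354 in DBA. For Htra3 they were Stx2 (0.22), a syntaxin of membrane fusion, Tdrp (0.28), Cdr2 (0.29), Qk (0.29), an RNA-binding protein, and Decr1 (0.29), of fatty acid oxidation. A second probe set of Qk was far from Htra3 (0.94).

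For Thy1, among 547 genes of chip B, the closest was Cd99 (0.16), a surface glycoprotein, with 13253 in DU6 and 7253 in DU6i, against 3439 in DUKs and 5703 in DBA. A second probe set of Cd99 was also close (0.27). Next were Tle5 (0.19), Ift20 (0.24), of cilia, Snx2 (0.27), a sorting nexin, and Mtch1 (0.27), of mitochondria. Among the 3 genes, Sfrp2 and Htra3 differed by 0.33, Thy1 and Htra3 by 0.40 and Sfrp2 and Thy1 by 0.55. The closest genes listed have the smallest of 2184 or 547 differences, so nothing is read from their being closer than the 3 genes are to each other.

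**Figure D5:**
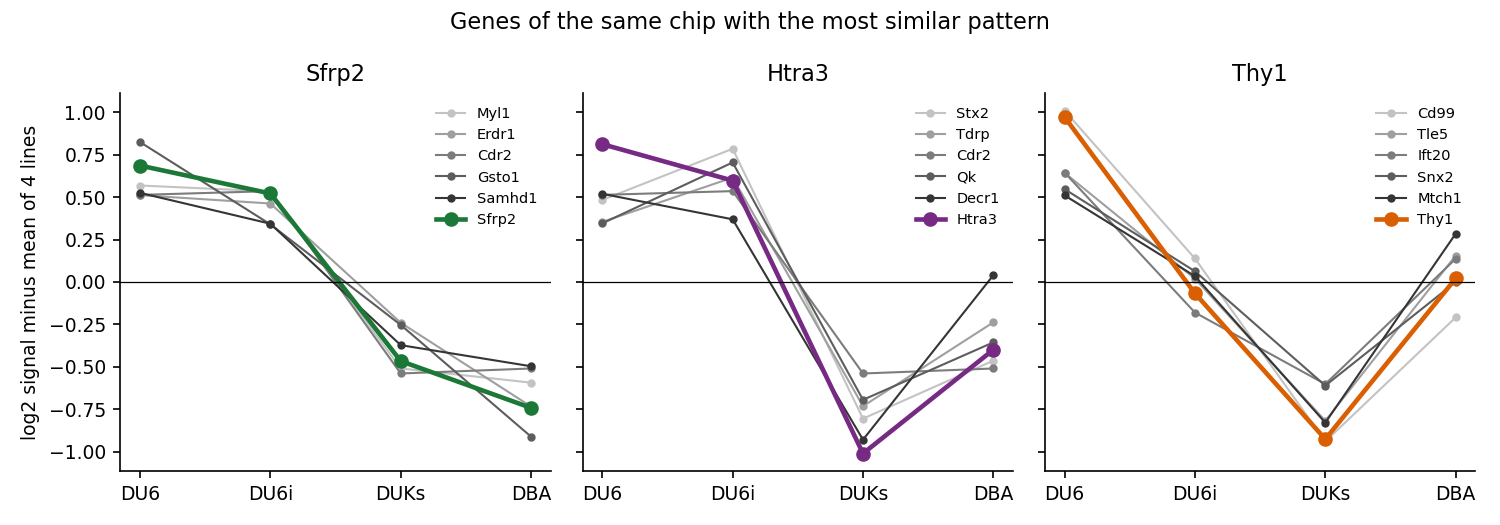
The log2 signal minus its mean over the 4 lines, for Sfrp2, Htra3 and Thy1 (coloured) and the 5 genes of the same chip with the most similar pattern (grey). Sfrp2 and Htra3 fall into high DU6 lines and low control lines, and Thy1 is at its highest in DU6 and its lowest in DUKs.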

How the data were processed

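The deposited values are linear intensity values, 1 per probe set and array. Per the labels' protocols, the authors used Data Mining Tool 1.2 with Microarray Suite 4.0.1, and each array was scaled on the basis of every probe set; RNA was pooled per line before hybridisation. Between 12.8% and 30.5% of the values per array lie below 0, and between 1639 and 3334 probe sets per array were above the floor. Detection calls were not used here.

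The floor was set per chip from the negative signals, at the 95th percentile of their absolute values. Lower signals were raised to the floor ahead of the log2 step, and a ratio against such a signal is a lower bound, worded with "at least" in the text. A probe set was measured in a pair of lines if 1 or both arrays exceeded the floor. The 110 AFFX control probe sets were left out. Genes were named through the platform annotation (1 symbol for 5560 probe sets of chip A and 2001 of chip B, several for 197 and 27, none for 827 and 4567), and a gene with several probe sets was represented by the brightest.

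The test was limma 3.58.1 (R 4.3.3; lmFit and eBayes) on log2 intensity of probe sets that exceeded the floor on 2 or more arrays, with Benjamini-Hochberg adjustment over both chips. It was tested on simulated data. P-values measure the spread between lines only. Named list genes were at 2-fold or more in DU6 against DUKs or DU6i against DBA, at most 6 per list, the largest first, and for each of the 3 genes the 5 nearest in pattern. The 3 genes and the lists were chosen with earlier results of these data known. Serpinf1, Htra1, Htra2, Wnt3, Fzd8, Adipoq, Col1a1, Col1a2 and Col3a1 were named outside this rule, after their values were seen. So were the cell type markers and the genes at or under the floor.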

Additional observations from a re-analysis of the deposited data

Results flagged for a closer look

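Fmod, a matrix proteoglycan, ran in opposite directions in the pairs, with log2 ratios of 1.66 in DU6 against DUKs and -1.59 in DU6i against DBA. A second probe set, on the other chip, gave 1.74 and -1.60. Timp2, an inhibitor of metalloproteinases, had log2 ratios of -1.27 in DU6 against DUKs and 1.21 in DU6i against DBA, the last against a DBA signal under the floor. The difference between the pairs was not tested for either gene, since each line has 1 pool.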

How the results depend on the processing

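Ratios were recomputed with quantile normalisation, rescaling to one median, the floor halved or doubled, and log2(signal + floor). Sfrp2 and Htra3 stayed higher in DU6 than in DUKs and in DU6i than in DBA under all 5, and Thy1 stayed higher in DU6 than in DUKs and at -0.09 to -0.03 in DU6i against DBA. With the floor doubled, the log2 ratio was 0.74 for Sfrp2 in DU6i against DBA, 1.35 for Thy1 and 0.91 for Htra3 in DU6 against DUKs; with log2(signal + floor) these values were 0.86, 1.36 and 1.20. For Sfrp2 in DU6 against DUKs they were 0.91 and 0.82, under 2-fold, as were those in DU6i against DBA. Htra3 in DU6i against DUKs was at 0.70 and 1.04, where it had been 1.61. Thy1 in DU6i against DUKs was at 0.32 with the floor doubled, where it had been 0.86. In DUKs against DBA, Thy1 was at -0.40 with the floor doubled, where it had been -0.95. Both settings shrink ratios of low signals by construction. Between DU6 and DU6i, Sfrp2 turned to -0.01 after quantile normalisation and after rescaling. Rescaling put the median of all probe sets at -0.06 in DU6 against DUKs, where it had been 0.05.

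Probe sets at least 2-fold higher in DU6 than in DUKs numbered 219, and 368 with the floor halved, 98 with it doubled and 108 with log2(signal + floor); lower ones numbered 353, and 612 halved and 170 doubled. In DU6i against DBA, 266 were higher, and 474 halved and 147 doubled, and 371 lower, and 637 halved and 180 doubled. List medians reversed in DU6i against DBA for the Wnt list (0.0113, quantile), the TGF-beta list (0.0457, quantile; 0.0445, rescaled) and the THY1 partner list (-0.0233, floor halved). Limma called 5 probe sets with no filter, where most values sit at the floor, and 0 under the other alternatives; leaving out each line in turn gave 0 to 0. Other probe sets of the 3 genes could not be tried, as each has 1. No paired analysis was possible because each line has 1 pool per chip. Signals near the floor, above all Htra3 in DUKs, limit the ratios.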
